A study of Mus musculus with 9 samples.

Results

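Leukaemia inhibitory factor (LIF) and its relatives signal through gp130, and 10 genes of this pathway were followed across 3 kinds of mouse cells. They are the ligand gene Lif, the receptor genes Lifr, Il6st, Osmr and Il6ra, the kinase genes Jak1 and Jak2, the transcription factor gene Stat3, and the response genes Socs3 and Pim1. Members were the probe sets that the platform annotation gives exactly 1 symbol equal to one of these names, which found 10 of 10 among 19938 genes with such a probe set. Total RNA was read on 9 one-colour Affymetrix Mouse Gene 1.0 ST arrays, 3 for each group. The groups were adult mouse cardiac fibroblasts, cardiac fibroblasts labelled as dedifferentiated by a protein-based treatment, and mouse embryonic stem (ES) cells. All samples carry the strain label C57BL/6. The labels used here give neither the age of the animals, nor the culture medium, any added LIF, feeder cells or passage, nor whether the arrays of a group came from separate animals, clones or cultures. The p-values therefore measure only the spread between these arrays, which may be technical.

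LIF binds the LIF receptor, which then pairs with gp130, the shared subunit encoded by Il6st. Oncostatin M uses gp130 with its own receptor subunit, and interleukin-6 uses the binding subunit Il6ra with gp130. Kinases of the JAK family bound to these subunits then phosphorylate STAT3, which enters the nucleus and switches on genes such as Socs3, whose product shuts the signal off. Mouse ES cells are known for depending on LIF and STAT3 to renew themselves in culture, and fibroblasts are known as producers of LIF and interleukin-6.

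Promoter sequences were found for 10 of 10 members in a RefSeq table of build GRCm38.p6, with 12 entries in all. Each window printed is the 250 bases before the transcription start, 5′ to 3′ on the gene's strand. The Socs3 window is shown because Socs3 was the 1 member with the letters of a STAT site there. Those letters are TTCNNNGAA, which read alike on both strands, and stand in capitals. The Lif window is shown because it alone among the members held the letters of an AP-1 site, TGANTCA, which also read alike on both strands. The Osmr and Lifr windows are shown because these receptor genes are neighbours that went opposite ways, and their capitals mark the GC box, GGGCGG or its reverse complement CCGCCC. Lifr has a second entry in the table, without a GC box, which is not printed.
Socs3, chr11:117969367-117969616, minus strand: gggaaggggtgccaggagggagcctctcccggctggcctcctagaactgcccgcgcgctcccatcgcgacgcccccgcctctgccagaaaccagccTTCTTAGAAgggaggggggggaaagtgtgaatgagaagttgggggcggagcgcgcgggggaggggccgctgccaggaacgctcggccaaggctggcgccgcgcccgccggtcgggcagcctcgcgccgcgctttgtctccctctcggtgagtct
Lif, chr11:4257318-4257567, plus strand: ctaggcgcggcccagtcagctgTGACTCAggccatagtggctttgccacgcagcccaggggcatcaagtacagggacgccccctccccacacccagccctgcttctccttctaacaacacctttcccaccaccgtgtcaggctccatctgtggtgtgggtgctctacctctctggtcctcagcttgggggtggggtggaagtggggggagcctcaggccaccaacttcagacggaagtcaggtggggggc
Osmr, chr15:6874314-6874563, minus strand: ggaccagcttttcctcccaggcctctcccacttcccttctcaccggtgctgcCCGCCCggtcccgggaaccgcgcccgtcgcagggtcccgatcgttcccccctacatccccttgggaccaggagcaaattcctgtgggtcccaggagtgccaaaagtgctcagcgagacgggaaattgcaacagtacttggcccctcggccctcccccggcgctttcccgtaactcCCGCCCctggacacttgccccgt
Lifr, chr15:7129322-7129571, plus strand: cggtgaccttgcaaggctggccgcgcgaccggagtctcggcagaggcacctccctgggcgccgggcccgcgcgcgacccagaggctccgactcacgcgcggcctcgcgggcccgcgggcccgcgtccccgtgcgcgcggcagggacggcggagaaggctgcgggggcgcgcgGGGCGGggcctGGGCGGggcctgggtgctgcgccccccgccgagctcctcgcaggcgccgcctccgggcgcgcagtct

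Of the 27025 genes in that table, 8.13% had the STAT letters in at least 1 such window, 7.82% the AP-1 letters and 35.4% the GC box. Among the members, 1, 1 and 8 of 10 had them, and no match overlapped another. The printed Lifr window held 43 CG dinucleotides, more than 99.3% of all windows in the table, and the Osmr window held 18, more than 78.3%. The window of the second Lifr entry held only 3, more than 29.0%. The Lif window held 6, which was also the median of all windows. Among the other members, windows held 37 for Jak2, 26 each for Il6st and Socs3, 19 for Jak1, 18 for Il6ra and 13 for Stat3. The Pim1 entries held 36 and 4. Whether these counts go with the direction of a gene's difference was not tested. A match is a description of letters and shows no binding.

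The deposited values are log2 expression values made by the authors with RMA. No call of presence or absence comes with them, so whether a low value is above background is unknown, and levels of different genes are not compared. Differences of dim genes are understated on this scale. A gene was called higher or lower where limma's moderated test gave a Benjamini-Hochberg adjusted p under 0.05 over all 19938 genes together with a difference of at least 1 log2 unit. Brackets give 95% intervals of the difference. Because the RNA is from bulk cells, fewer cells of a type and less RNA per cell cannot be told apart.

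The array medians lay between 4.65 and 4.86, and arrays of 1 group correlated at 0.988 to 0.995. The ES and fibroblast markers matched the labels of the ES and fibroblast arrays. On the dedifferentiated arrays they were near those of ES cells, and they cannot show from which cells these came. All 5 ES markers were higher and all 5 fibroblast and all 3 cardiac fibroblast markers lower, in both dedifferentiated and ES cells than in fibroblasts. The mean log2 value of the 5 ES markers was 3.71 to 4.08 on fibroblast arrays, 9.76 to 9.79 on dedifferentiated arrays and 9.72 to 9.99 on ES arrays. In dedifferentiated cells 3 of 5 endothelial markers were higher and 1 lower than in fibroblasts, and in ES cells 1 was higher and 1 lower; of 5 macrophage markers 1 was higher and 2 lower in both groups, and of 5 cardiomyocyte markers 0 were called. Macrophage markers averaged 6.30 to 6.54, 4.77 to 4.89 and 5.04 to 5.14 in the same order, endothelial markers 4.82 to 5.08, 5.63 to 5.73 and 4.96 to 5.10, and cardiomyocyte markers 4.57 to 4.79, 4.42 to 4.51 and 4.48 to 4.61. Sex-linked transcripts also separated the fibroblasts: Xist, which coats an inactive X chromosome, was at 7.31 ± 0.074, 3.25 ± 0.21 and 3.15 ± 0.32, and the Y-linked Eif2s3y at 3.55 ± 0.12, 8.09 ± 0.12 and 7.76 ± 0.25 (mean ± SD, n = 3 each). High Xist with low Eif2s3y, as in the fibroblasts, is a female pattern, and the reverse, as in dedifferentiated and ES cells, a male one. The part of these differences in the values of the pathway genes was not tested. A difference from these fibroblasts cannot be read as a change within the same cells.

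Dedifferentiated and ES cells both had much less RNA of the ligand, of gp130, of the oncostatin M receptor, of both kinases and of Stat3 than the fibroblasts, and more RNA of the LIF receptor. In dedifferentiated cells 6 of 10 members were lower and 1 was higher than in fibroblasts, where 10.1% of all genes were lower and 8.79% higher. In ES cells 6 were lower and 2 higher, where 10.4% of all genes were lower and 8.85% higher. By adjusted p alone, 3 members were higher and 7 lower in either comparison, beside 25% and 22.4% of all genes for dedifferentiated cells and 26.1% and 22.9% for ES cells. Both comparisons share the 3 fibroblast arrays. The median difference over the 10 members was -1.70 log2 units for dedifferentiated cells, where that of all genes was 0.01, and -1.74 for ES cells, where it was 0.02. For each of the 10 members, the dedifferentiated and the ES arrays lay apart from the fibroblast arrays, which was so for 54.7% of all genes for dedifferentiated and 51.9% for ES cells.

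**Figure D1:**
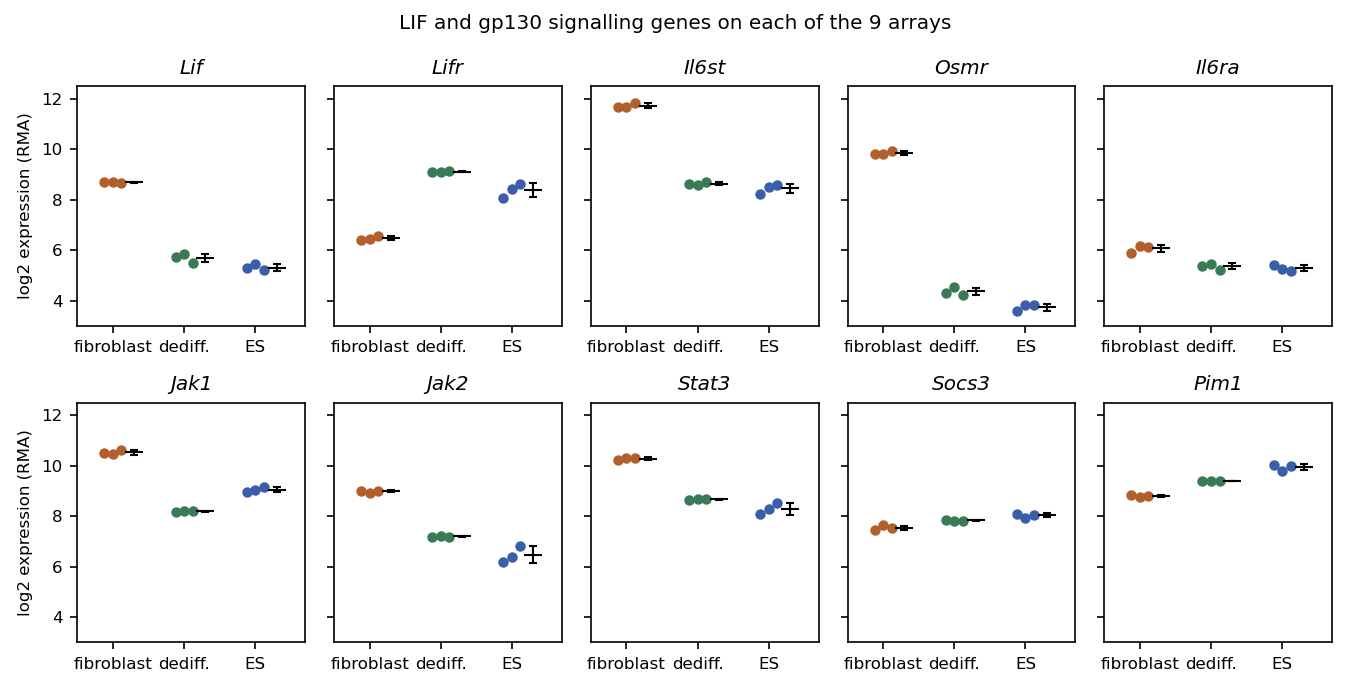
Log2 expression (RMA) of the 10 members on each of the 9 arrays, with 3 points per group and the mean ± SD beside them in black. Lifr, Socs3 and Pim1 lie lowest in fibroblasts, and the other 7 genes lie highest there, Osmr by the widest gap.

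Lif encodes the cytokine itself (probe set 10373918). Its log2 values were 8.71, 8.69 and 8.66 on the fibroblast arrays, 5.73, 5.84 and 5.51 on the dedifferentiated arrays, and 5.30, 5.44 and 5.20 on the ES arrays. The fibroblast arrays stood about 3 units above all others, and the dedifferentiated and ES arrays did not overlap. Dedifferentiated cells had 7.97-fold less Lif RNA than fibroblasts (-2.99 log2 units, -3.21 to -2.78, adjusted p = 3.3e-10), and ES cells 10.4-fold less (-3.37, -3.59 to -3.16, adjusted p = 1.2e-10).

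Lifr encodes the subunit that binds LIF (probe set 10422822) and had the largest positive difference of the 10 members from fibroblasts. It read 6.42, 6.44 and 6.57 in fibroblasts, 9.10, 9.09 and 9.13 in dedifferentiated cells, and 8.06, 8.43 and 8.61 in ES cells. The dedifferentiated arrays lay close together above every ES array, and the ES arrays were spread. Lifr was 6.18-fold higher in dedifferentiated cells than in fibroblasts (2.63, 2.36 to 2.89, adjusted p = 5.9e-09) and 3.70-fold higher in ES cells (1.89, 1.62 to 2.16, adjusted p = 9.3e-08).

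Il6st encodes gp130, the subunit shared by the receptors for LIF, oncostatin M and interleukin-6 (probe set 10407173). Its values were 11.66, 11.68 and 11.82 in fibroblasts, 8.63, 8.59 and 8.69 in dedifferentiated cells, and 8.23, 8.50 and 8.60 in ES cells. Fibroblasts were far above both other groups, whose arrays touched at 8.59 and 8.60. The difference from fibroblasts was 8.47-fold in dedifferentiated cells (-3.08, -3.30 to -2.87, adjusted p = 2.7e-10) and 9.68-fold in ES cells (-3.27, -3.49 to -3.06, adjusted p = 1.5e-10). The LIF-binding subunit and its signalling partner thus differed from fibroblasts in opposite directions.

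Osmr, the subunit that pairs with gp130 to bind oncostatin M, showed the widest gap of the 10 members (probe set 10427471). It was at 9.80, 9.79 and 9.93 in fibroblasts, at 4.32, 4.53 and 4.24 in dedifferentiated cells, and at 3.58, 3.83 and 3.82 in ES cells. No dedifferentiated or ES array came within 5 log2 units of a fibroblast array. This was 44.6-fold less in dedifferentiated cells (-5.48, -5.70 to -5.26, adjusted p = 4.9e-12) and 68.6-fold less in ES cells (-6.10, -6.32 to -5.88, adjusted p = 2.1e-12).

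Il6ra, which binds interleukin-6 and presents it to gp130, differed less (probe set 10499655). The values were 5.90, 6.17 and 6.14 in fibroblasts, 5.38, 5.47 and 5.23 in dedifferentiated cells, and 5.41, 5.26 and 5.19 in ES cells. The fibroblast arrays were highest and the arrays of the other groups overlapped. The differences of -0.71 (-0.93 to -0.49) in dedifferentiated and -0.78 (-1.0 to -0.56) in ES cells were under the size required for a call, with adjusted p = 8.1e-05 and 3.6e-05.

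Jak1 encodes the main kinase bound to gp130 (probe set 10514668). Its arrays read 10.49, 10.46 and 10.63 in fibroblasts, 8.18, 8.20 and 8.20 in dedifferentiated cells, and 8.97, 9.04 and 9.14 in ES cells. Here the dedifferentiated cells, not the ES cells, were lowest, and no groups overlapped. The gap to fibroblasts was 5.04-fold in dedifferentiated cells (-2.33, -2.50 to -2.16, adjusted p = 3.6e-10) and 2.78-fold in ES cells (-1.48, -1.65 to -1.31, adjusted p = 1.7e-08).

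Jak2, a related kinase that these receptors also bind, had the reverse order of dedifferentiated and ES cells (probe set 10462363). It was at 9.0, 8.94 and 8.99 in fibroblasts, at 7.19, 7.22 and 7.19 in dedifferentiated cells, and at 6.17, 6.39 and 6.83 in ES cells. The ES arrays were lowest and most spread, and again no groups overlapped. Jak2 was 3.43-fold lower in dedifferentiated cells (-1.78, -2.08 to -1.48, adjusted p = 4.3e-07) and 5.71-fold lower in ES cells (-2.51, -2.81 to -2.21, adjusted p = 2.1e-08).

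Stat3 encodes the transcription factor that carries the signal to the nucleus (probe set 10391301). Fibroblast arrays read 10.24, 10.29 and 10.32, dedifferentiated arrays 8.65, 8.67 and 8.67, and ES arrays 8.07, 8.27 and 8.52. The groups did not overlap, and the values of dedifferentiated replicates 2 and 3 are exactly equal. The RNA was 3.07-fold lower in dedifferentiated cells than in fibroblasts (-1.62, -1.84 to -1.39, adjusted p = 8.9e-08) and 3.99-fold lower in ES cells (-2.0, -2.22 to -1.77, adjusted p = 1.4e-08).

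Socs3, the feedback inhibitor that STAT3 induces, was among the few members that were not lower (probe set 10393449). It read 7.46, 7.63 and 7.53 in fibroblasts, 7.86, 7.82 and 7.81 in dedifferentiated cells, and 8.10, 7.94 and 8.04 in ES cells. The 3 groups did not overlap, with fibroblasts lowest and ES cells highest, yet all 9 arrays lay within 1 log2 unit. The difference from fibroblasts was 0.29 (0.12 to 0.46, adjusted p = 0.0077) in dedifferentiated and 0.49 (0.32 to 0.65, adjusted p = 2e-04) in ES cells, under the size required. With each array centred on its median, which lowers the median difference of all genes from 0.01 to -0.11 in the first comparison, the value for dedifferentiated cells was 0.17 (adjusted p = 0.088). It was 0.24 (adjusted p = 0.05) after another quantile normalization and 0.22 (adjusted p = 0.057) with the mean of the gene's probe sets. A second Socs3 probe set, 10383010, lay at 5.43 to 5.91 on all arrays and gave 0.15 (-0.11 to 0.41) and 0.17 (-0.09 to 0.43), with adjusted p = 0.39 and 0.31.

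Pim1 encodes a serine/threonine kinase induced by STAT3 (probe set 10443527). Its values were 8.86, 8.77 and 8.81 in fibroblasts, 9.41, 9.39 and 9.38 in dedifferentiated cells, and 10.04, 9.80 and 9.98 in ES cells. The groups formed 3 separate steps, with the dedifferentiated arrays between the others. Pim1 was 2.18-fold higher in ES cells than in fibroblasts (1.13, 0.95 to 1.30, adjusted p = 2.1e-07) and differed by 0.58 (0.40 to 0.75, adjusted p = 6.4e-05) in dedifferentiated cells, under the size required.

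**Figure D2:**
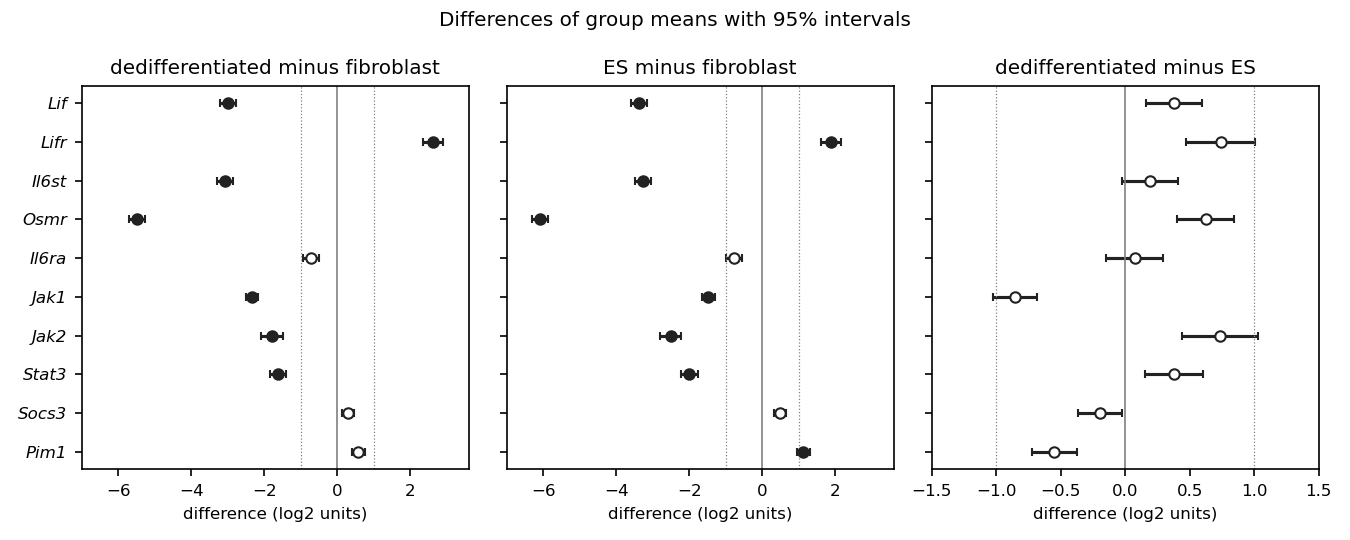
Differences of group means for the 10 members in 3 comparisons, in log2 units, with 95% intervals from limma; filled points passed the adjusted p and the size of 1 log2 unit (dotted lines). The horizontal scale of dedifferentiated minus ES is stretched, and there all 10 points lie within 1 log2 unit of 0.

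Dedifferentiated and ES cells were much closer to each other. Of the 10 members, 0 were called in limma's comparison of these groups, where 1.01% of all genes were called higher in dedifferentiated cells and 0.547% lower. In the same fit 8 members had an unadjusted p under 0.05, a share that was not computed for all genes. By adjusted p alone, 5 were higher in dedifferentiated cells (11.2% of all genes) and 2 lower (10% of all genes), and the arrays did not overlap for 8 of 10 (32.6% of all genes). Lifr, Jak2 and Osmr were higher in dedifferentiated cells, by 0.74 (0.47 to 1.01, adjusted p = 0.0013), 0.73 (0.44 to 1.03, adjusted p = 0.0026) and 0.62 (0.40 to 0.84, adjusted p = 0.0012). The kinase gene Jak1 and the STAT3-induced Pim1 were lower there, by -0.86 (-1.03 to -0.69, adjusted p = 3.4e-05) and -0.55 (-0.72 to -0.37, adjusted p = 6e-04). These 5 genes passed an adjusted p of 0.05 under each of the 20 alternative settings that refitted them, with highest adjusted p of 0.0088, 0.017, 0.0068, 0.00045 and 0.0045.

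The remaining members were less firm in that comparison. Lif differed by 0.38 (0.16 to 0.60, adjusted p = 0.017), and its adjusted p was 0.065 without dedifferentiated replicate 1, 0.078 without dedifferentiated replicate 2 and 0.062 without ES replicate 3. Stat3 differed by 0.38 (0.15 to 0.60, adjusted p = 0.022), with 0.062, 0.068 and 0.073 without dedifferentiated replicate 1, 2 or 3 and 0.067 without ES replicate 2. It was also 0.053 with all rows of the table and 0.058 in a fit of only the 2 groups. For Il6st the difference was 0.19 (-0.03 to 0.41, adjusted p = 0.23), for Il6ra 0.07 (-0.15 to 0.29, adjusted p = 0.72) and for Socs3 -0.20 (-0.36 to -0.03, adjusted p = 0.1). The intervals of these 3 genes exclude a difference of 1 log2 unit in either direction.

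The ES arrays carried most of the spread in this pathway. Their SD exceeded that of the dedifferentiated arrays for 7 of 10 members and that of the fibroblast arrays for 7 of 10. Over all genes the median SD was 0.127 in ES cells, 0.0762 in dedifferentiated cells and 0.105 in fibroblasts. ES replicate 1 was the lowest of the ES arrays for 6 members, Lifr, Il6st, Osmr, Jak1, Jak2 and Stat3, and for 40.3% of all genes; it correlated with the other ES arrays at 0.988 each, and those with each other at 0.992. Without it, dedifferentiated minus ES was 0.59 for Lifr (adjusted p = 0.00089), 0.59 for Jak2 (0.0051), 0.54 for Osmr (0.003), -0.90 for Jak1 (6.6e-05), 0.27 for Stat3 (0.046) and 0.09 for Il6st (0.52). The counts of members called in the 3 comparisons were the same without it.

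The order of the levels was therefore fibroblast, dedifferentiated, ES from high to low for Osmr and Jak2, and for Lif and Stat3 with the less firm last step. It was dedifferentiated, ES, fibroblast for Lifr, and fibroblast, ES, dedifferentiated for Jak1. Pim1 ran from ES through dedifferentiated to fibroblast. Il6st and Il6ra were highest in fibroblasts, with no difference between the other groups beyond their spread. Socs3 was lowest in fibroblasts, and its step between dedifferentiated and ES cells did not pass the adjusted p.

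Osmr and Lifr are neighbours on chromosome 15, with no other protein-coding gene between them in the RefSeq table of GRCm38.p6. Of the 11 protein-coding genes nearest to Lifr in that order, 6 before and 5 after it, all 11 had a row, and 2 were lower and 1 higher in each comparison with fibroblasts. Osmr and the prostaglandin receptor gene Ptger4 (-2.62 in dedifferentiated cells, -3.03 in ES cells) were lower, and the nuclear pore gene Nup155 (1.08 and 1.06) was higher. Rictor, which encodes a subunit of the mTORC2 kinase complex and lies directly beyond Osmr, differed by 0.10 and -0.05. Egflam, directly beyond Lifr, differed by 0.29 and 0.35. With so few genes these counts are near the shares over all genes (10.1% lower and 8.79% higher for dedifferentiated cells, 10.4% and 8.85% for ES cells), and Osmr is 1 of those lower.

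Lif and Osm, the gene for oncostatin M, are also neighbours, on chromosome 11. Osm was at 3.49, 3.62 and 3.47 (means of fibroblasts, dedifferentiated and ES cells) and differed by 0.12 (adjusted p = 0.44) and -0.02 (adjusted p = 0.9). Of the 11 nearest protein-coding genes of Lif, 1, the splicing factor gene Sf3a1, was higher in dedifferentiated cells (1.19), and 0 were called in ES cells. Stat3 lies beside Stat5a and Stat5b, which encode related STAT proteins. Stat5b was lower in both groups (-1.66 and -1.57), and Stat5a differed by -0.79 and -0.49. Around Stat3, 3 of 11 genes were lower in dedifferentiated cells, Cavin1 (-2.52), Stat5b and Naglu (-1.49), and the same 3 were lower in ES cells, where Coasy was higher (1.46). Over all genes, 10.1% were lower and 8.79% higher for dedifferentiated cells, and 10.4% and 8.85% for ES cells. With so few genes, whether the genes around Lif or Stat3 differ from these shares was not tested. The genes of these neighbourhoods were chosen after the members' values were seen.

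**Figure D3:**
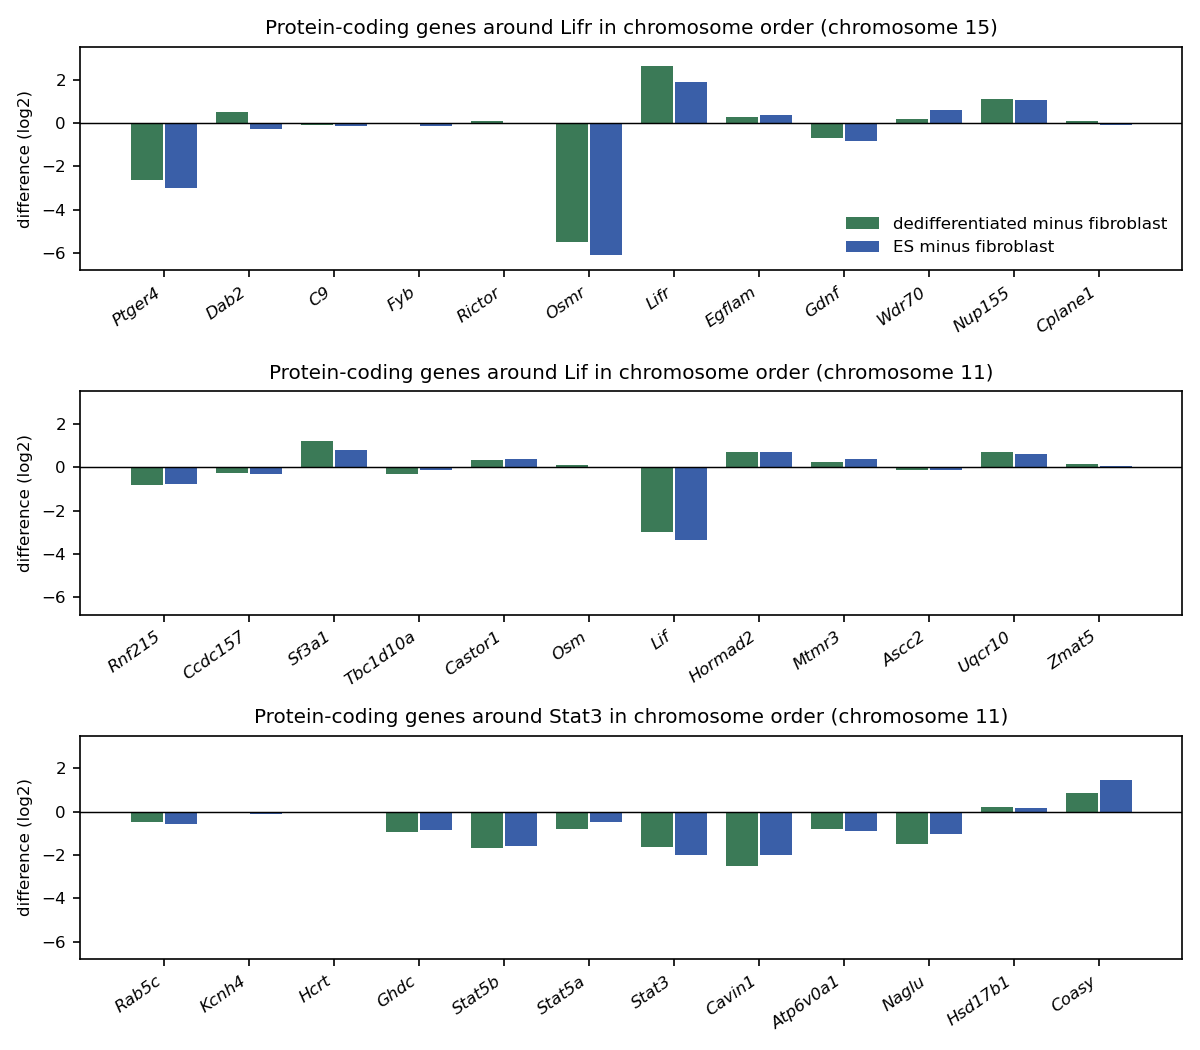
Difference from fibroblasts in log2 units for dedifferentiated (green) and ES cells (blue), for protein-coding genes in chromosome order around Lifr, Lif and Stat3; the horizontal axis is gene order, not distance. Osmr and Lifr stand side by side with bars of opposite sign, and Osm beside Lif has bars near 0.

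The genes whose profile was closest to a member were found by the root mean square difference of centred log2 values over the 9 arrays, among 19938 genes. For Lifr these were the amino acid transporter gene Slc38a1 (0.11 log2 units), the chromatin remodeller gene Hells (0.13) and the connexin gene Gja1 (0.14). For Lif they were S100a6 (0.11), Dpysl3 (0.11) and Lgi2 (0.13). For Osmr they were Il1rap, which encodes a subunit of the interleukin-1 receptor (0.18), and the matrix genes Efemp1 (0.19) and Fbln2 (0.19). For Stat3 they were the integrin genes Itgb1 and Itgav (0.06 each) and Ppp1r18 (0.06), and for Socs3 Tbc1d22b, Alad and Brd3 (0.05 each).

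Other genes of the pathway came from 6 lists holding 58 genes, of which 53 were analysed here. Over the 53, 7 were higher and 17 lower in dedifferentiated cells than in fibroblasts, 10 higher and 18 lower in ES cells, and 3 higher and 4 lower in dedifferentiated than in ES cells. The shares over all genes, which also stand behind the counts of each list, were 8.79% and 10.1%, 8.85% and 10.4%, and 1.01% and 0.547%. Their median differences were -0.06, -0.09 and 0.07 log2 units, beside 0.01, 0.02 and -0.00 over all genes.

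Among 7 other ligands of the gp130 family, 3 were lower and 0 higher in both other groups than in fibroblasts by limma. The fold was largest for Il6, which encodes interleukin-6, a cytokine of inflammation. It had a mean of 10.29 in fibroblasts, 2.83 in dedifferentiated cells (-7.46, -7.70 to -7.22, adjusted p = 1.5e-12) and 2.60 in ES cells (-7.70, -7.94 to -7.46, adjusted p = 8.3e-13). Il11, a further cytokine of the family, differed by -2.44 and -2.64. Clcf1, a ligand of the ciliary neurotrophic factor receptor and named as the only other call, differed by -2.12 and -2.51. The median of this list was -0.16 in dedifferentiated and -0.05 in ES cells, since Osm, Il27, Ctf1 and Ctf2 stayed within 0.2 log2 units of 0. Of the 7, 0 were called between dedifferentiated and ES cells, and 1, Clcf1, had an unadjusted p under 0.05 there in limma's fit. Clcf1 was higher in dedifferentiated cells by 0.38 (0.16 to 0.60, adjusted p = 0.018), under the size required. By adjusted p alone, 11.2% of all genes were higher in that comparison.

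Among 4 other receptor genes, Cntfr, the binding subunit for ciliary neurotrophic factor, was higher in ES cells than in both other groups. Its values were 5.18, 5.32 and 5.28 in fibroblasts, 5.44, 5.24 and 5.29 in dedifferentiated cells, and 6.81, 6.17 and 6.33 in ES cells. Fibroblast and dedifferentiated arrays overlapped, and every ES array was above them. ES minus fibroblast was 1.18 (0.87 to 1.49, adjusted p = 2e-05), and dedifferentiated minus ES was -1.12 (-1.43 to -0.81, adjusted p = 0.00026). Both fell just short of 1 log2 unit without ES replicate 1 (0.99 and -0.93) and with array weights (0.99 and -0.92). The other 3, Il27ra, Il31ra and Lepr, were not called in any of the 3 comparisons by limma. Under the size required, Il27ra differed from fibroblasts by -0.86 (adjusted p = 0.00043) in dedifferentiated and -0.75 (adjusted p = 0.0011) in ES cells. Lepr differed by 0.23 (adjusted p = 0.019) for ES minus fibroblast and by -0.31 (adjusted p = 0.011) for dedifferentiated minus ES.

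Of 6 other JAK and STAT genes, 3 were lower and 1 higher in each of the other groups than in fibroblasts, with medians of -1.23 and -0.76. Stat4, best known from interleukin-12 signalling in lymphocytes, was the higher one (1.60 and 1.40). Stat6, which answers interleukin-4, was lowest relative to fibroblasts (-2.91 and -2.56). Stat2, which carries the type I interferon signal, was at 7.72, 8.01 and 8.08 in fibroblasts, 5.26, 5.52 and 5.20 in dedifferentiated cells, and 6.90, 6.91 and 6.90 in ES cells. The 3 groups were apart, with dedifferentiated cells lowest, as they were for Jak1. Stat2 differed from fibroblasts by -2.61 in dedifferentiated cells and by -1.03 in ES cells. The second call was lost without fibroblast replicate 2 (-0.99) or 3 (-0.96). Dedifferentiated minus ES was -1.58 (-1.82 to -1.34, adjusted p = 6.5e-06).

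Adaptors and feedback inhibitors went both ways, with 3 of 14 higher and 2 lower in each comparison with fibroblasts. Gab1, a docking protein that links gp130 to the MAP kinase and PI3 kinase branches, was higher by 2.31 in dedifferentiated and 2.10 in ES cells. The phosphatase gene Ptpn6 was higher by 1.79 and 1.67. The third was Ptpn2, a phosphatase of JAK and STAT proteins, at 1.20 and 1.1; with the mean of its probe sets it was at 0.62 and 0.55, so that both calls were lost. Its ES call was also lost without ES replicate 2 (0.98) and with arrays centred on their median (0.98). Ptpn11, which encodes the phosphatase SHP2 that binds gp130, differed by -1.24 and -1.43, and Socs5, a relative of Socs3, by -2.01 and -2.49. Socs2, a relative that restrains growth hormone signalling, read 9.09, 9.14 and 9.09 in dedifferentiated cells and 8.02, 8.07 and 8.19 in ES cells, without overlap. It was 1.01 (0.86 to 1.17, adjusted p = 7.3e-06) higher in dedifferentiated cells, at the edge of the required size. That call was lost without dedifferentiated replicate 2 (0.999) or ES replicate 1 (0.98), after another quantile normalization (0.97) and with the mean of the gene's probe sets (0.76).

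Genes known as LIF and STAT3 targets in ES cells did not follow 1 direction. Of 10, 2 were higher and 0 lower in dedifferentiated cells than in fibroblasts, and 5 were higher and 1 lower in ES cells. The list medians of these comparisons were 0.28 and 0.63 log2 units. Tfcp2l1, a naive-state transcription factor downstream of STAT3, was higher by 4.19 and 5.33, and Klf5, a Krüppel-like factor of ES cells, by 2.92 and 3.07. Myc was at 8.84, 8.76 and 8.84 in fibroblasts, 7.97, 7.95 and 7.99 in dedifferentiated cells, and 5.53, 5.86 and 5.58 in ES cells, so that the groups formed separate steps. It differed from fibroblasts by -0.84 (-1.04 to -0.64) in dedifferentiated cells and -3.16 (-3.36 to -2.96) in ES cells. Between dedifferentiated and ES cells, 1 of the 10 was higher, Myc by 2.31 (2.11 to 2.51), and 2 were lower, Tfcp2l1 (-1.14, -1.36 to -0.93) and the immediate-early gene Fos (-1.29, -1.56 to -1.02).

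Genes known as acute-phase or survival targets of STAT3 were mostly lower outside the fibroblasts. Of 12, 9 were lower and 1 higher in dedifferentiated cells (median -1.98), and 9 lower and 0 higher in ES cells (median -2.02). Serpina3n, an acute-phase protease inhibitor with close paralogs that an array may not separate, differed by -7.52 and -7.55, and the metalloproteinase inhibitor Timp1 by -3.84 and -4.49. Ccnd1, which encodes the G1 cyclin D1, was the 1 gene called higher, in dedifferentiated cells. It read 7.98, 7.96 and 7.93 in fibroblasts, 9.45, 9.39 and 9.43 in dedifferentiated cells, and 8.16, 7.86 and 8.04 in ES cells. Only the dedifferentiated arrays of this gene stood apart, by 1.47 (1.28 to 1.65, adjusted p = 3.6e-08) from fibroblasts and 1.41 (1.22 to 1.59, adjusted p = 2.6e-06) from ES cells. Mcl1, a survival protein of the BCL2 family, was above fibroblasts in both groups without overlap, by 0.77 (adjusted p = 6.8e-06) and 0.85 (adjusted p = 2.8e-06), under the size required.

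**Figure D4:**
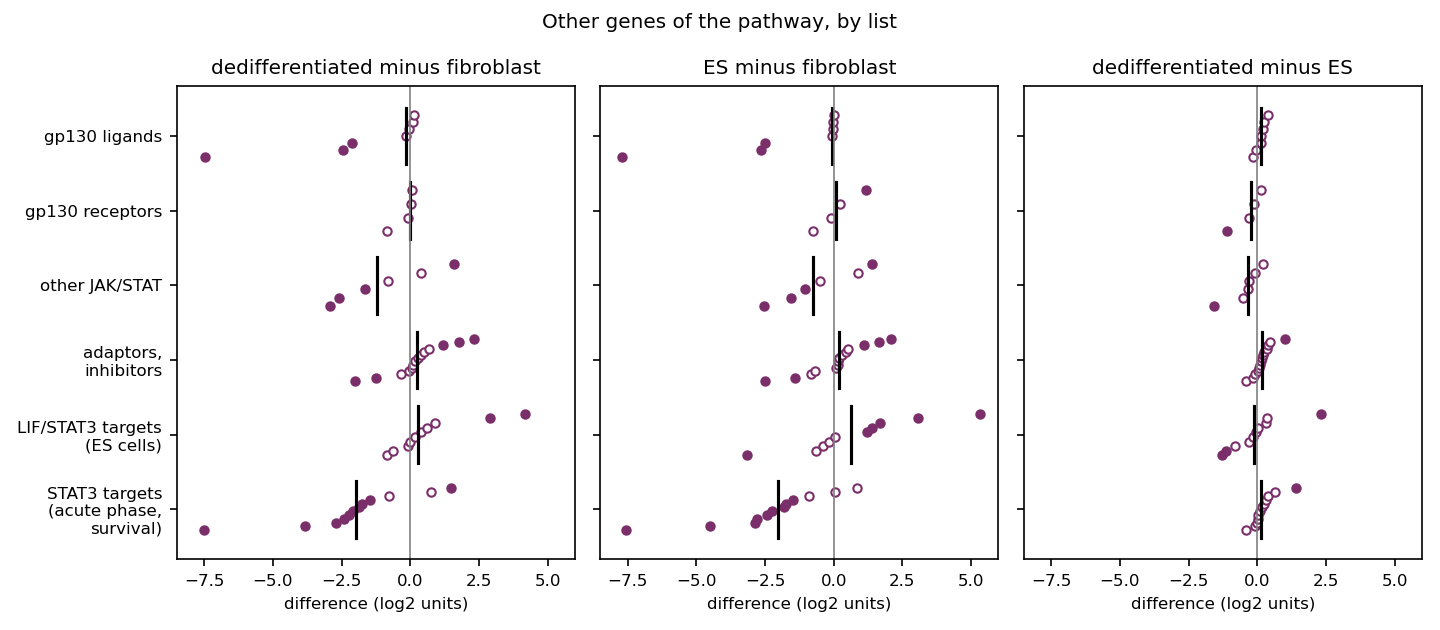
Differences in log2 units for the 53 other pathway genes in 6 lists and 3 comparisons; each point is a gene, filled where it was called, and black bars are list medians. The list of acute-phase and survival targets lies mostly left of 0 in both comparisons with fibroblasts, with medians of -1.98 and -2.02.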

How the data were processed

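The authors deposited log2 expression values, 1 column for each of 9 arrays and 35557 rows. The submitters' processing notes name RMA and Expression Console 1.1 as the source of these values. RMA corrects background, quantile-normalizes probes over arrays and summarises probe sets, so that a general change of all RNA would not be seen. The genome build is not given in the sources used here. Each array's group was read from its title, although the fibroblasts' source label names an ES cell as well. Of the rows, 21789 had 1 symbol, 1621 several and 12147 none. For the 999 genes with several rows, the row with the highest mean was used, leaving 19938 genes.

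All 9 arrays entered 1 fit in limma 3.58.1 (R 4.3.3), which was tested on simulated data. The only member with several rows was Socs3. The members, gene lists, tests and alternatives were chosen with earlier results of these data known. Named genes were the 10 members, up to 2 called genes per list, comparison and direction, the 3 closest profiles of 5 members, and cell markers; Clcf1, Ptpn2, Mcl1, Osm, Il27, Ctf1, Ctf2, Il27ra, Il31ra, Lepr, Xist, Eif2s3y and chromosomal neighbours were named outside that rule, after values were seen. No 2 arrays were identical. The number of arrays limits the precision. Alternatives were other normalizations, filters, rows, variance models, fits, thresholds, a replicate block and leaving out each array.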

Additional observations from a re-analysis of the deposited data

Results flagged for a closer look

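Between dedifferentiated and ES cells, 7 pathway genes outside the 10 members differed by limma's test at the required size, so that their differences from fibroblasts were unequal in the 2 groups. The values of dedifferentiated minus ES were 2.31 log2 units for Myc, 1.41 for Ccnd1, 1.01 for Socs2, -1.12 for Cntfr, -1.14 for Tfcp2l1, -1.29 for Fos and -1.58 for Stat2. With 3 arrays per group, no test for single outlying arrays was made, though each array was left out in turn.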

How the results depend on the processing

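The 20 alternatives that refitted the data left the members called at 1 higher and 6 lower in dedifferentiated cells, 2 and 6 in ES cells, and 0 and 0 between those groups. With no required size, dedifferentiated cells exceeded fibroblasts for 3 members, where the main count was 1, and 5 were higher and 2 lower in dedifferentiated than in ES cells, where it was 0. The same rule gave 4977 higher and 4468 lower of all genes in dedifferentiated cells, 5203 and 4570 in ES cells, and 2236 and 2003 between them. For the pathway lists it gave 15 higher and 23 lower in dedifferentiated cells than fibroblasts, 16 and 25 in ES cells, and 9 higher and 11 lower between dedifferentiated and ES cells. A change of sign counted as reversed only where the gene was called in the main or the alternative fit. Of 3708 gene differences under alternatives, 3692 kept their side of the threshold, 14 lost a call, 2 gained one and 0 reversed. The cause of these moves was not tested. The titles do not state that equal replicate numbers pair the arrays. Same-numbered deviations correlated at -0.20 to 0.25, and 3 of 9 arrays matched their own number best. With 3 arrays per group this cannot exclude a pairing. With the replicate block, the counts were again 1753 higher and 2012 lower, 1764 and 2073, and 201 and 109 of all genes. All 3765, 3837 and 310 genes that differed by at least 1 log2 unit in the 3 comparisons also passed the adjusted p, so the required size set the calls.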
